A study of Mus musculus with 6 samples.

Results

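The transcripts of 4 annexins (Anxa1, Anxa2, Anxa5 and Anxa6), 4 S100 proteins (S100a4, S100a6, S100a10 and S100a11) and dysferlin (Dysf) were followed in the mouse left ventricle with and without RBM20 overexpression. They are 9 of the 31273 gene symbols in the deposited table, were picked by symbol, and were all found once. RBM20 is a muscle RNA-binding protein that controls alternative splicing of titin and other transcripts, and the study asked what the unmutated protein does in dilated cardiomyopathy. Polyadenylated RNA from left ventricles was sequenced in 6 libraries, and the values are TPM (transcript abundances), which are scaled to gene length and to a fixed total per library.

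The 3 control libraries carry the genotype label control and have cki in their titles. The 3 overexpression libraries are labelled as RBM20 overexpression specific to cardiomyocytes and have cre in their titles. The series describes a knock-in model that tamoxifen switches on in cardiomyocytes. The promoter that drives the recombinase, the tamoxifen given to either group, the alleles the controls carry, and the age and sex of the animals are not in the labels. Nothing states that the libraries came from separate animals, so p-values measure the spread between these libraries only, which may be partly technical.

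Annexins are cytosolic proteins that bind acidic phospholipids when calcium rises. Many pair with S100 proteins, small dimers that mostly, though not S100A10, bind calcium and that hold annexins together at the membrane: annexin A2 with S100A10, and annexin A1 with S100A11. In muscle, both families gather with dysferlin, a calcium-sensing ferlin anchored in the sarcolemma, at tears in the plasma membrane, and loss of dysferlin causes muscular dystrophy and cardiomyopathy.

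All 9 transcripts were higher in every overexpression library than in every control library. S100a4 had 6.85 times the control mean, S100a11 4.15 times, S100a6 3.59 times, Anxa2 3.35 times, Anxa5 3.07 times, Anxa1 2.85 times, Anxa6 2.28 times, S100a10 1.87 times and Dysf 1.39 times. All 9 passed the test across genes (limma on log2(TPM + 1), adjusted p under 0.05), against a background of 59.0% of the 12404 tested genes called higher and 9.09% called lower. Groups without overlap, as seen for the 9, were found with the overexpression libraries on top for 62.1% of tested genes and at the bottom for 10.4%. The median difference over all tested genes was 0.55 on the log2 scale, so a rise in TPM was the common case in these libraries. After the libraries were rescaled by a median of ratios (each library over the average library, gene by gene), that median was 0.01 and 22.2% of genes were called higher. On this rescaled comparison 7 of the 9 genes were called higher, none lower (24.0% of all genes were), and S100a10 and Dysf passed in neither direction. The 7 were also the ones whose groups did not overlap after rescaling, which held with the overexpression libraries on top for 28.3% of tested genes and at the bottom for 28.7%. The median difference over the 9 genes was 1.60 in TPM and 0.98 after rescaling. Rescaled values are given beside the deposited ones below.

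**Figure D1:**
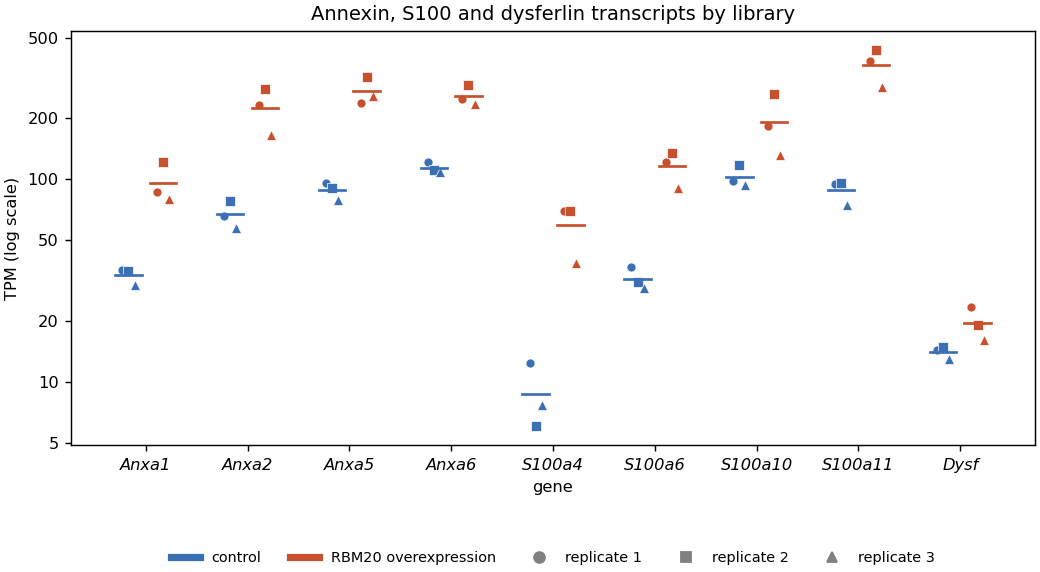
Level of each gene in each library, in TPM on a log axis; points are libraries, shaped by replicate number and coloured by group, and bars are group means (n = 3). The overexpression points lie above the control points for all 9 genes, by the widest margin for S100a4 and the narrowest for Dysf.

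The libraries held an estimated 41800000 to 90300000 counted read ends. The fewest for a member were about 77.4, for S100a4 in control replicate 3. Mitochondrially encoded genes took 48.3 to 52.0% of the TPM total in controls and 36.7 to 41.0% in overexpression libraries, and since TPM share a fixed total this bears on all other genes. Rbm20 itself rose from 81.8 ± 8.21 to 714 ± 340 TPM (mean ± SD, n = 3), with 321, 913 and 907 TPM in the overexpression libraries, which checks the labels. The Y-linked Ddx3y was at 88.1 TPM in overexpression replicate 1 and listed at 0 in the other 5 libraries. Xist was at 0.017 TPM in that replicate and at 34.4 to 62.6 TPM in the other 5. By these sex-linked genes, overexpression replicate 1 differed in sex from all other libraries. Without that library 8 of the 9 genes were still called higher, and Dysf was not (adjusted p = 0.0860). Transcripts that define cardiomyocytes were abundant in every library, as in a ventricle: Myl2, the ventricular regulatory myosin light chain, was at 14174 ± 1044 TPM in controls and 10695 ± 881 TPM with overexpression.

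In GRCm38 with the GENCODE M21 annotation the 4 S100 members lie on chromosome 3, S100a4 at 90603771 to 90606045, S100a6 at 90612882 to 90624181, S100a11 at 93520488 to 93526287 and S100a10 at 93555080 to 93564643, all on the plus strand. Anxa5 is also on chromosome 3, at 36448923 to 36475894 on the minus strand. Anxa1 lies on chromosome 19 at 20373428 to 20390944 (minus), Anxa2 on chromosome 9 at 69453620 to 69491795 (plus), Anxa6 on chromosome 11 at 54979108 to 55033445 (minus) and Dysf on chromosome 6 at 84008590 to 84211060 (plus). The labels do not say if reads were counted by strand, so those from annotated genes that overlap Anxa1 (1500015L24Rik), Anxa2 (Gm16144, Mir3109), Anxa5 (Mir7009), S100a4 (Gm42674) and Dysf (Gm15475, Gm33024, Gm7498) cannot be told apart from theirs.

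Promoters were taken from RefSeq (GRCm38.p6), as 250 bases before to 50 after the annotated start, for 7 of the 9 genes. There were 8 promoters, 2 of them for Dysf, and Anxa6 and S100a10 had no entry. They were searched on both strands for the sites of AP-1 (TGANTCA), a factor family induced by stress, of TEAD (GGAATG), the partner of YAP, and of serum response factor (the CArG box), and no matches overlapped. AP-1 matches were found in 2 of the 8 promoters and in 7.81% of 32851 promoters of all genes, a TEAD match in 1 (Anxa1, start at -236 from the start site) against 14.7%, and a CArG match in 1 (Anxa5, +25) against 1.63%. The 250 bases before the start are printed 5' to 3' for S100a11 and Anxa2, which hold the AP-1 matches (in capitals), and for S100a4, the gene with the highest fold change, which holds no match in this window.
S100a11, chr3:93520246-93520495, plus strand: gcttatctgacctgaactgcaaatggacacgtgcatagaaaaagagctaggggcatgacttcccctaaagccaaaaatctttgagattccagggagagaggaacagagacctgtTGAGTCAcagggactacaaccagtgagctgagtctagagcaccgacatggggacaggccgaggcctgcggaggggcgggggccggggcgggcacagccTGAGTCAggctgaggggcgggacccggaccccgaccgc
Anxa2, chr9:69453433-69453682, plus strand: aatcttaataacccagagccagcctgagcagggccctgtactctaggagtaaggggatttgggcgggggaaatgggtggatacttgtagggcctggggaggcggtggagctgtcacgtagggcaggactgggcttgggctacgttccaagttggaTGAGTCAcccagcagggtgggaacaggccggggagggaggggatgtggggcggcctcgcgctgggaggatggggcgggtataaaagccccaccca
S100a4, chr3:90603520-90603769, plus strand: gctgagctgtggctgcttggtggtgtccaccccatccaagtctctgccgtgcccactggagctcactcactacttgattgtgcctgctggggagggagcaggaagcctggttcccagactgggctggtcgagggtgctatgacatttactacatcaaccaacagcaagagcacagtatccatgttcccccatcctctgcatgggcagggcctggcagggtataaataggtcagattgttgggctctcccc
The S100a11 promoter had a match starting 136 bases and another 38 bases before the start site, and the Anxa2 promoter had one 95 bases before it. The S100a4 promoter held 2 CpG dinucleotides, the lowest number among the 8, the Anxa2 promoter 13 and the S100a11 promoter 15, beside a median of 7 over all promoters. These are matches of letters, and no binding was measured here.

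Among the 4 annexins Anxa2 had the largest difference on the log2 scale. Its product forms a heterotetramer with S100A10 and links membranes to actin. Anxa2 was at 66.3, 78.2 and 57.8 TPM in controls and at 233, 279 and 165 TPM with overexpression, so the lowest overexpression library was above the highest control by a wide margin. The means were 67.4 ± 10.3 and 226 ± 57.4 TPM (SD, n = 3), and the log2(TPM + 1) difference was 1.70 (SE 0.190, adjusted p = 0.00013), or 1.08 after rescaling (SE 0.151, adjusted p = 0.000793).

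Anxa5 encodes a protein that assembles into lattices on phosphatidylserine and is widely used to stain dying cells. It was at 96.4, 90.4 and 79.1 TPM in controls and at 238, 319 and 259 TPM with overexpression. The means were 88.6 ± 8.78 and 272 ± 41.9 TPM, a log2 difference of 1.60 (SE 0.127, adjusted p = 3.23e-05) and of 0.98 after rescaling (SE 0.112, adjusted p = 0.000303). Anxa5 had the smallest adjusted p in TPM of the 9 genes.

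Anxa1, which encodes a mediator of glucocorticoid action that limits leukocyte entry, was the least abundant of the 4 annexins. It stood at 35.9, 35.2 and 30.1 TPM in controls and at 86.6, 122 and 80.3 TPM with overexpression. From 33.7 ± 3.16 to 96.2 ± 22.3 TPM the log2 difference was 1.46 (SE 0.159, adjusted p = 0.000117), or 0.85 after rescaling (SE 0.126, adjusted p = 0.00109).

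Anxa6, the largest annexin and one that is abundant in striated muscle, had the highest control mean of the 9 genes. Its control values were 122, 111 and 109 TPM and its overexpression values 251, 293 and 235 TPM, the tightest of the 4 annexins relative to their mean. The means of 114 ± 7.17 and 260 ± 29.8 TPM differed by 1.18 on the log2 scale (SE 0.104, adjusted p = 4.92e-05). After rescaling this difference was 0.55 (SE 0.0888, adjusted p = 0.00161), the smallest of the 7 genes called on both scales.

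S100a11 reached the highest level of all 9 genes with overexpression. Its product binds annexins A1 and A2 and takes part in resealing of the plasma membrane. S100a11 was at 94.9, 96.3 and 74.6 TPM in controls and at 384, 435 and 284 TPM with overexpression. The means were 88.6 ± 12.2 and 368 ± 76.7 TPM, with a log2 difference of 2.03 (SE 0.166, adjusted p = 3.63e-05) and of 1.41 after rescaling (SE 0.133, adjusted p = 0.000119).

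S100a4, also known as fibroblast-specific protein and found in macrophages as well, had the largest fold change from the lowest control level. It was at 12.4, 6.02 and 7.65 TPM in controls and at 69.7, 70.0 and 38.6 TPM with overexpression. Overexpression replicates 1 and 2 were nearly equal and replicate 3 lower, still above the highest control. The means were 8.68 ± 3.29 and 59.4 ± 18.1 TPM, with a log2 difference of 2.64 (SE 0.285, adjusted p = 0.000113) and of 2.05 after rescaling (SE 0.282, adjusted p = 0.000737).

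S100a6, or calcyclin, is made by proliferating and mesenchymal cells. Its values were 36.8, 31.1 and 29.0 TPM in controls and 122, 135 and 90.6 TPM with overexpression, without overlap. From 32.3 ± 4.08 to 116 ± 22.8 TPM the log2 difference was 1.80 (SE 0.158, adjusted p = 4.88e-05), and 1.18 after rescaling (SE 0.134, adjusted p = 0.000287).

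S100a10, the partner of annexin A2, had a smaller mean difference than Anxa2. It was at 98.0, 117 and 94.3 TPM in controls and at 184, 263 and 131 TPM with overexpression, where replicate 3 stood close to the highest control. The means of 103 ± 12.3 and 193 ± 66.2 TPM differed by 0.84 on the log2 scale (SE 0.221, adjusted p = 0.00889). After rescaling the groups overlapped and the difference was 0.22 (95% interval -0.20 to 0.64, adjusted p = 0.354), an interval that holds both 0 and the rescaled difference of Anxa6.

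Dysf differed least. It was at 14.4, 14.8 and 13.01 TPM in controls and at 23.4, 19.1 and 16.2 TPM with overexpression, and replicate 3 with overexpression was only just above the controls. The means were 14.1 ± 0.945 and 19.6 ± 3.64 TPM, a log2 difference of 0.44 (SE 0.148, adjusted p = 0.028), which is below the median of 0.55 over all tested genes. After rescaling the sign turned, to -0.16 (95% interval -0.46 to 0.14, adjusted p = 0.363), and the groups overlapped. The call in TPM was lost without control replicate 3 (adjusted p = 0.0964), overexpression replicate 1 (0.0860) or overexpression replicate 2 (0.0628).

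**Figure D2:**
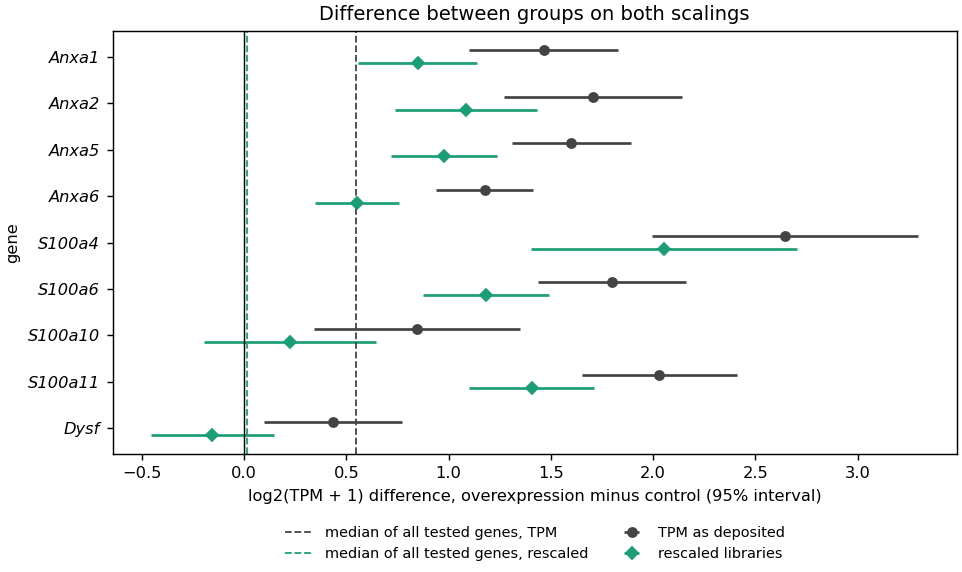
Difference between groups in log2(TPM + 1), overexpression minus control, for TPM as deposited (circles) and after rescaling (diamonds), with 95% intervals from limma; dashed lines mark the median of all tested genes on each scale. The rescaled intervals of S100a10 and Dysf include 0 and those of the other 7 genes lie above 0.

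The order of the levels differed between the groups. In controls Anxa6, S100a10, Anxa5, S100a11 and Anxa2 formed a band from 114 down to 67.4 TPM in which each gene overlapped its neighbour. Anxa1 and S100a6 followed at 33.7 and 32.3 TPM and overlapped each other, with Dysf at 14.1 and S100a4 at 8.68 TPM below them, each without overlap with the gene above. With overexpression S100a11 led at 368 TPM, followed by Anxa5, Anxa6, Anxa2, S100a10, S100a6 and Anxa1, each overlapping its neighbour. S100a4 at 59.4 TPM was above Dysf at 19.6 TPM, the reverse of their order in controls, again without overlap.

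Ratios of 2 genes within a library do not depend on how that library is scaled, and 6 were compared, with exact two-sided permutation tests over libraries that cannot go below p = 0.1 with 3 against 3. The ratio of Anxa2 to its partner S100a10 was 0.676, 0.667 and 0.613 in controls and 1.26, 1.06 and 1.26 with overexpression, so S100a10 was the more abundant transcript in every control library and Anxa2 in every overexpression library. The means of 0.652 ± 0.0343 and 1.19 ± 0.114 (SD, n = 3) differed by 0.87 on the log2 scale (exact permutation p = 0.1, adjusted 0.12). The other partner pair differed with the opposite sign: Anxa1 to S100a11 was 0.382 ± 0.0194 in controls and 0.262 ± 0.0319 with overexpression, without overlap (log2 difference -0.55, exact permutation p = 0.1, adjusted 0.12).

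Anxa5 relative to Anxa6 was 0.777 ± 0.0449 in controls and 1.05 ± 0.0848 with overexpression, without overlap, while Anxa2 relative to Anxa6 overlapped (0.593 ± 0.0969 and 0.861 ± 0.139, exact permutation p = 0.2, adjusted 0.20). S100a6 exceeded S100a4 in all libraries, with a ratio of 3.98 ± 1.10 in controls and 2.01 ± 0.310 with overexpression, without overlap. Dysf relative to myoferlin (Myof), its closest ferlin relative, was 3.89, 6.09 and 5.31 in controls and 2.40, 1.71 and 1.72 with overexpression, the largest log2 difference of the 6 ratios at -1.38 (exact permutation p = 0.1, adjusted 0.12). All 6 tests are limited by the number of libraries, and none passed 0.05.

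**Figure D3:**
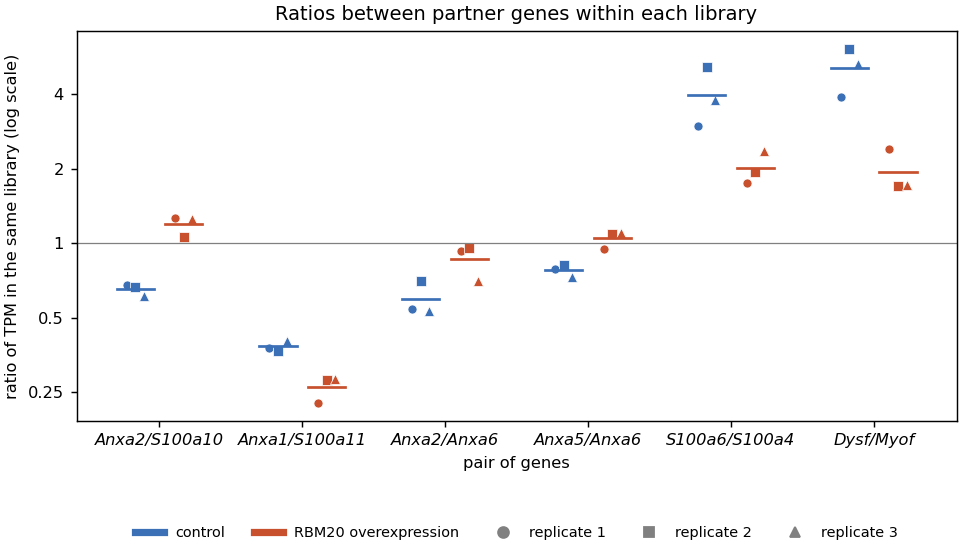
Ratio of the TPM of 2 genes within each library, on a log axis; points are libraries and bars are group means (n = 3). The groups are separate for every pair except Anxa2 over Anxa6. All libraries of Anxa2 over S100a10 are below the line at 1 in controls and above it with overexpression. The mean of Anxa5 over Anxa6 also crosses that line, with overexpression replicate 1 just below it.

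The summed TPM of the 12 annexin genes in the table was 443 ± 30.3 in controls and 1154 ± 170 with overexpression. Anxa6 held 25.7 ± 1.69% of it in controls and 22.6 ± 0.720% with overexpression, with every overexpression library below every control. Anxa5 held 19.97 ± 1.06% and 23.6 ± 2.09%, with the overexpression libraries on top, but overlapped when only the 4 member annexins were summed (29.2 ± 0.783% and 32.0 ± 2.85%). The shares of Anxa2 (15.2 ± 1.42% and 19.4 ± 2.67%) and Anxa1 (7.60 ± 0.266% and 8.27 ± 0.686%) overlapped between groups. The summed TPM of the 16 S100 genes was 1491 ± 74.1 and 2083 ± 171. S100a11 held 5.93 ± 0.559% of this in controls and 17.5 ± 2.39% with overexpression, S100a6 2.16 ± 0.186% and 5.53 ± 0.701%, and S100a4 0.58 ± 0.202% and 2.82 ± 0.722%, all without overlap. S100a10 overlapped, at 6.92 ± 0.736% and 9.12 ± 2.40%.

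Most of the S100 total was S100a1, the S100 of cardiomyocytes that binds the ryanodine receptor and the calcium pump, at 77.7 ± 0.917% in controls and 55.02 ± 6.09% with overexpression. Its own level was 1157 ± 44.6 and 1140 ± 42.5 TPM (log2 difference -0.02, adjusted p = 0.808), which after rescaling is a fall by 0.65 (adjusted p = 0.00161). Among the 15 S100 genes other than S100a1, S100a10 was the largest share in controls at 31.0 ± 3.17%, and S100a11 with overexpression at 39.0 ± 0.785%. The S100a10 share of that smaller sum was lower with overexpression, at 20.1 ± 2.78%, without overlap.

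**Figure D4:**
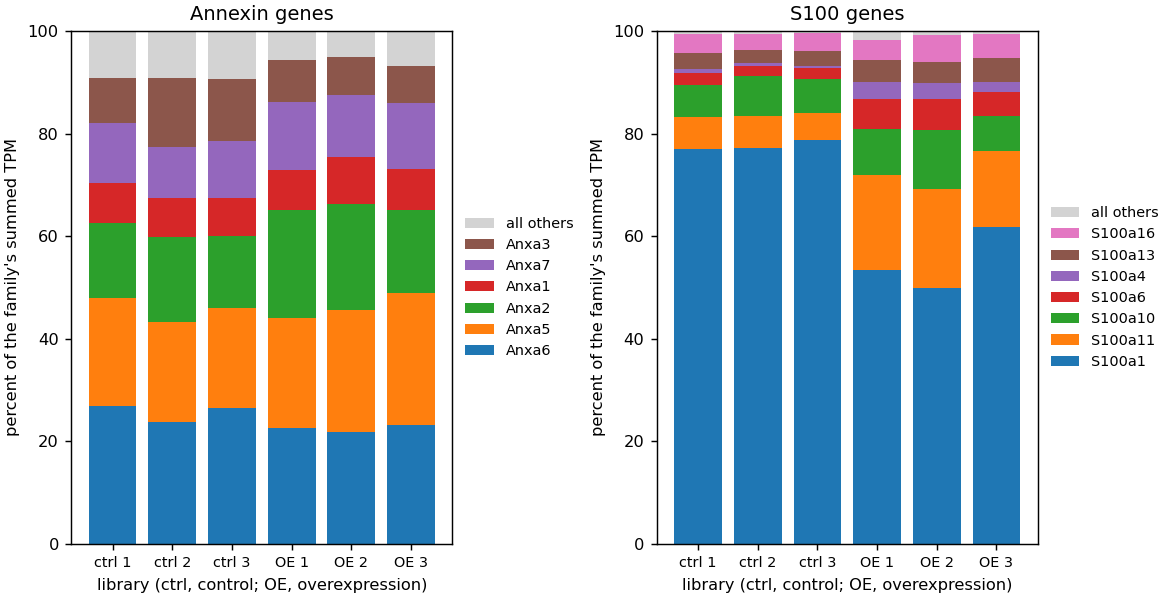
Percent of the summed TPM of the 12 annexin genes (left) and 16 S100 genes (right) held by each gene in each library, with less abundant genes joined as all others. Anxa6 takes a smaller part of the annexin bar in the overexpression libraries, and S100a11, S100a6 and S100a4 take larger parts of the S100 bar as S100a1 takes less.

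The remaining annexins and S100 genes were read beside the members. Of all tested genes 59.0% were called higher and 9.09% lower in TPM, and 22.2% higher and 24.0% lower after rescaling. Of 8 other annexins, 5 were abundant enough to test: 4 were called higher in TPM and, after rescaling, Anxa7 was called higher and Anxa13 lower. Anxa13 was near the floor, at 1.63 ± 0.477 TPM in controls and 0.753 ± 0.513 TPM with overexpression. It passed the filter only through the controls and was not called in TPM (adjusted p = 0.0616). Anxa7, an annexin expressed in heart, rose from 48.3 ± 3.67 to 147 ± 15.9 TPM, a rescaled log2 difference of 0.96 (adjusted p = 0.000135) next to 0.98 for Anxa5. Anxa3, Anxa4 and Anxa11 rose in TPM by 0.79, 0.87 and 0.55 on the log2 scale, with rescaled differences of 0.17, 0.28 and -0.06 that did not pass. Of 12 other S100 genes 6 were tested, 4 were called higher in TPM, and S100a13 alone stayed called higher after rescaling (42.6 ± 4.91 to 90.1 ± 5.74 TPM, rescaled log2 difference 0.45, adjusted p = 0.0104). S100a8 and S100a9, the calprotectin subunits of neutrophils, were low, at 2.29 ± 0.709 and 2.91 ± 1.04 TPM in controls and 6.93 ± 4.36 and 10.3 ± 6.28 TPM with overexpression, and passed in TPM only. The listed S100 genes on chromosome 3 number 13 and span 90511034 to 93564643, and of the 9 tested there 4 were called higher and 1 lower after rescaling.

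Other membrane repair genes formed a list of 43, of which 42 were in the table and 38 were tested; Trim72 was not analysed here. In TPM 27 were called higher and none lower (59.0% and 9.09% of all tested genes), with a median log2 difference of 0.60. After rescaling 10 were called higher and 6 lower (22.2% and 24.0% of all tested genes), with a median of 0.01, as over all tested genes. Myof, a ferlin of regenerating muscle, was at 3.71, 2.43 and 2.45 TPM in controls and 9.75, 11.2 and 9.39 TPM with overexpression, a rescaled log2 difference of 1.02 (adjusted p = 0.00179) beside -0.16 for Dysf. Ahnak2 rose 6.30-fold (1.64 ± 0.370 to 10.3 ± 2.25 TPM, rescaled difference 1.61), while its larger relative Ahnak, a scaffold that binds dysferlin, annexin A2 and S100A10, was at 103 ± 13.4 and 134 ± 31.1 TPM and did not pass on either scale. Popdc3 rose 3.73-fold. Bin1, which shapes transverse tubules, rose 2.99-fold (rescaled difference 0.86, adjusted p = 0.00699).

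Cav3, the muscle caveolin that binds dysferlin, rose from 65.0 ± 2.80 to 130 ± 20.9 TPM (rescaled difference 0.35, adjusted p = 0.0318). Cavin4 was called higher in TPM and did not pass after rescaling (0.49, adjusted p = 0.0811). Of the calpains, the proteases that cut dysferlin after injury, Capn2 passed in TPM (0.89, adjusted p = 0.000479), as did Capn3 (0.59, adjusted p = 0.0211) and the small subunit Capns1 (0.69, adjusted p = 0.000141). Capn1 did not, and none of these 4 genes passed after rescaling. Pdcd6, a calcium sensor that recruits the ESCRT machinery, was called higher in TPM with a rescaled difference of -0.01. Chmp4b, an ESCRT-III subunit, was called higher in TPM (0.26, adjusted p = 0.0328) and lower after rescaling (-0.36, adjusted p = 0.0287). Other genes of these families went the other way. Called higher on both scales were Chmp3 (rescaled difference 0.34), Vps4b (0.34), Pdcd6ip (0.37), Cavin3 (0.84) and Ehd4 (0.82). Among the 6 genes called lower after rescaling were also Cavin2 (-1.13), Syt7 (-0.78), Smpd1 (-0.73), Vamp2 (-0.66) and Ehd1 (-0.52), none of which passed in TPM, and Ehd2 passed on neither scale.

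In bulk tissue a change in the number of cells of a type and a change of RNA per cell cannot be told apart, so marker lists were read beside the 9 genes. The counts of every marker list below stand against these shares of all tested genes: 59.0% higher and 9.09% lower in TPM, and 22.2% and 24.0% after rescaling. Activated fibroblast markers summed to 134 to 165 TPM in controls and to 731, 1046 and 620 TPM in overexpression replicates 1, 2 and 3. After rescaling 7 of the 10 were called higher and 1 lower. Postn, which encodes periostin and had the highest mean over all libraries, rose from 10.7 ± 3.38 to 478 ± 150 TPM. Acta2, smooth muscle actin, led in controls at 98.5 ± 7.51 TPM, did not pass in TPM and was the gene called lower after rescaling (-0.46, adjusted p = 0.0027). Fibroblast markers summed to 1373 to 1826 TPM in controls and to 2092 to 2438 TPM with overexpression. After rescaling these sums were 1753 to 2297 and 1675 to 1837 and overlapped, so their rise depends on the scaling. Of 12 tested 7 were called higher and 3 lower after rescaling, the latter including Gsn and Dcn, the most abundant over all libraries. Macrophage markers summed to 390 to 512 TPM in controls and to 1497, 1187 and 851 TPM in overexpression replicates 1, 2 and 3, and 13 of 13 were called higher in TPM and 11 after rescaling. Lyz2, the most abundant of them, rose from 177 ± 27.0 to 390 ± 142 TPM and did not pass after rescaling (0.45, adjusted p = 0.149). C1qa, a complement gene of resident macrophages, rose from 61.8 ± 9.20 to 173 ± 38.8 TPM (rescaled difference 0.84, adjusted p = 0.00385).

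Of 12 endothelial markers 1 was called higher in TPM, and 0 higher and 4 lower after rescaling. Endothelial markers summed to 582 to 799 TPM in controls and 815 to 837 TPM with overexpression, or 744 to 1004 and 620 to 720 after rescaling. Of 9 pericyte and smooth muscle markers 3 were called higher and 1 lower in TPM, and 2 higher and 5 lower after rescaling. Of 11 cardiomyocyte markers 6 were called lower and 1 higher in TPM, the latter being Actc1, cardiac alpha-actin (8097 ± 992 and 11597 ± 1911 TPM), and 10 were called lower and none higher after rescaling. They summed to 53968 to 60247 TPM in controls and 41172 to 47292 TPM with overexpression, or 68916 to 75785 and 30717 to 40704 after rescaling. Neutrophil markers summed to at most 1.81 TPM in controls and 5.79 TPM with overexpression, with Elane at 0 in all libraries, and lymphocyte markers to at most 1.86 and 2.93 TPM. Mesothelial markers summed to 4.45 to 21.5 and 9.55 to 32.8 TPM, with groups that overlapped, and 2 of 5 were called higher on both scales. These 2 had control means below 1 TPM and passed the filter only through the overexpression libraries. Of 4 atrial markers 2 were called higher after rescaling, among them Nppa, the stress-induced natriuretic peptide gene, and the atrial light chain Myl7 reached 116 TPM in overexpression replicate 3 and 3.07 in replicate 2. Of 8 skeletal muscle markers 3 were tested, the rest being below the filter, and all 3 were called higher on both scales. Tnnt3, the most abundant of them, had a control mean of 0.69 TPM and passed the filter only through the overexpression libraries. The part of fibroblasts, macrophages or the other cell types in the rise of the annexins and S100 genes was not tested.

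**Figure D5:**
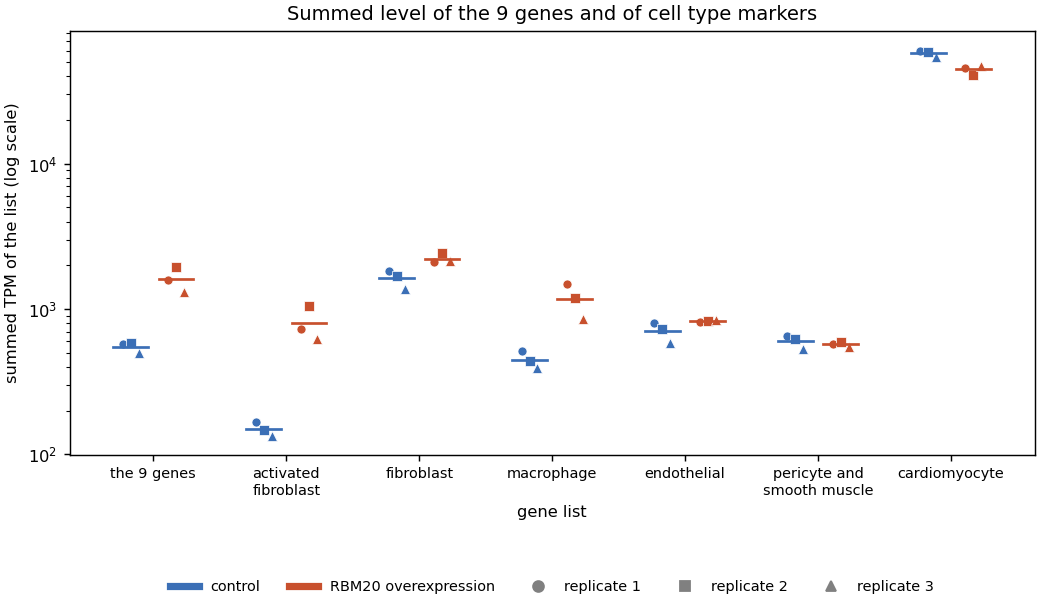
Summed TPM of the 9 genes and of the marker lists in each library, on a log axis; points are libraries and bars are group means (n = 3). The 9 genes and the activated fibroblast, fibroblast, macrophage and endothelial markers are each higher in all overexpression libraries. Pericyte and smooth muscle markers overlap, and cardiomyocyte markers are lower. After rescaling (not drawn) the fibroblast sums overlap and the endothelial sums are lower with overexpression.

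Within the overexpression group most of the 9 genes shared an order of libraries. How common this order was among all genes was not measured. In TPM replicate 2 was the highest for 8 of them and replicate 3 the lowest for 8, with Dysf highest in replicate 1 and Anxa5 lowest there. After rescaling replicate 2 was still highest for 7 and replicate 3 lowest for 7. Among the controls, replicate 3 was the lowest for 8 genes in TPM and for 6 after rescaling. The sums of the 9 genes, 1591, 1935 and 1301 TPM, had the same order as the activated fibroblast sums and as those of the other annexins (299.9, 330.0 and 272 TPM) and the repair partners (3426, 3788 and 3231 TPM). After rescaling the repair partner sums lay between 2744 and 2826 and no longer had this order. The fibroblast sums, 2092, 2438 and 2134 TPM, were lowest in replicate 1, and the macrophage sum was highest there. The scaling factors of the overexpression libraries, 1.25, 1.34 and 1.16, had the same order as the sums of the 9 genes, and Rbm20 did not, being lowest in replicate 1.

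To find the closest patterns, log2(TPM + 1) values were centred on the control mean and compared over the 6 libraries with 11620 other genes by root mean square distance, a description that a shared group difference dominates. The nearest genes were Col1a2 (0.213) and Col5a1 (0.220), both fibrillar collagen chains, for S100a4, and Srpx2 (0.074) and Fn1 (0.078), the fibronectin gene and one of the activated fibroblast markers, for S100a6. The nearest were Pla2g4a (0.062) and Mrc2 (0.068) for S100a11 and H6pd (0.085) and Acer2 (0.092) for S100a10. For the annexins they were Osbpl5 (0.068) and Kif23 (0.070) for Anxa1, Rangap1 (0.085) and E2f1 (0.092) for Anxa2, Fads2 (0.037) and Gsto1 (0.042) for Anxa5, and P3h3 (0.024) and Acp1 (0.025) for Anxa6. Kif23 and E2f1 averaged 0.58 and 0.35 TPM in controls and 3.58 and 3.59 TPM with overexpression, and passed the filter only through the latter. This scale understates changes at such low levels, so their nearness is not one of fold change. Usp8 (0.030) and Bet1 (0.051) were nearest to Dysf. No other gene came as close to S100a4 as the collagens, which were still farther from it than the nearest genes of every other member. Among the 36 pairs of the 9 genes Anxa1 and Anxa5 were closest (0.133), Anxa2 and S100a6 next (0.164), and S100a4 and Dysf farthest apart (1.60). Anxa2 and its partner S100a10 were 0.615 apart.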

How the data were processed

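Values are TPM per gene symbol for 6 libraries, as deposited by the authors and named in the file header. Per the labels' protocols, libraries were polyadenylated RNA prepared with a TruSeq kit. The submitters' processing notes name featureCounts 2.0.3, edgeR 3.40.2, GATK 4.2.6.1, STAR-Fusion 1.11.0 and the build mm8, with no roles. Aligner, annotation and strand setting: not given in the sources used here. Groups follow the genotype labels; replicate numbers only name libraries. The 12404 genes that averaged 1 TPM or more were compared as log2(TPM + 1) with limma 3.58.1 in R 4.3.3 (trended, two-sided, Benjamini-Hochberg over all tested genes, threshold 0.05); all 9 members passed this filter, also by their control mean alone. Differences on this scale understate changes of low genes; folds are ratios of mean TPM. Rescaled values divide the TPM of a library by a size factor, the median over genes of its value relative to the geometric mean of all libraries. On simulated data for this comparison (12401 genes) the fit recovered 100% of genes changed 2-fold or 4-fold, with 9 unchanged genes among 209 calls. The simulation changed few genes, all well above the filter and equally often up and down. It used a set dispersion of 0.02 and no shift in the mitochondrial share. The deposited data differ in these points, so the rates need not hold for them. Read ends were estimated from TPM steps and GENCODE M21 gene lengths.

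The members and lists were chosen with earlier results of these data known. Genes were named by a rule that takes the 9 members and the 2 genes nearest each, and allows tested annexin and S100 genes, fixed repair genes with the 3 largest called rises and falls, and the 2 most abundant markers of each list; not all of those allowed are printed. Elane, Ddx3y, Xist, Vamp2, Capn3, Capns1, Chmp3, Vps4b, Pdcd6ip, Cavin3 and Ehd4 fall outside this rule and were chosen with their values in view. Alternatives covered pseudocounts, filters, scalings, limma settings and each library left out. Exact permutation tests of single genes cannot go below p = 0.1.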

Additional observations from a re-analysis of the deposited data

How the results depend on the processing

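The calls of Anxa1, Anxa2, Anxa5, Anxa6, S100a4, S100a6 and S100a11 and their direction held under every alternative run. S100a10 lost its call after rescaling (log2 difference 0.22, adjusted p = 0.354) and quantile normalization (0.43, adjusted p = 0.135). Dysf lost its call with no filter (0.44, adjusted p = 0.0506) and with mitochondrially encoded genes removed (0.17, adjusted p = 0.313), and turned to -0.16 after rescaling and -0.11 after quantile normalization; with each library left out it ranged from 0.30 to 0.56 in TPM and from -0.28 to -0.08 rescaled. S100a10 ranged from 0.59 to 1.09 in TPM, called each time, and from 0.032 to 0.421 rescaled, called only without overexpression replicate 3 (adjusted p = 0.0455). Of the 9 members 8 to 9 were called higher in TPM and 7 to 8 rescaled with each library left out.

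Over all genes 2756 were called higher and 2974 lower after rescaling, 2963 and 2816 after quantile normalization, and 5382 higher and 1796 lower of 13420 tested with mitochondrially encoded genes removed; with each library left out 6198 to 7212 were called higher and 950 to 1088 lower in TPM, and 2045 to 2639 higher and 2369 to 2839 lower rescaled. Of the other annexins 1 was called higher and 1 lower after rescaling, 2 and 1 after quantile normalization, and 1 lower with mitochondrially encoded genes removed; with each library left out 0 to 1 were lower in TPM (1 without overexpression replicate 3), and 1 to 2 higher and 0 to 1 lower rescaled. Of the other S100 genes 1 was called higher and 1 lower after rescaling, 2 higher after quantile normalization, 1 lower with mitochondrially encoded genes removed, and 1 to 2 higher and 1 lower rescaled with each library left out. Of the repair partners 10 were higher and 6 lower after rescaling, 15 and 5 after quantile normalization, and 4 lower with mitochondrially encoded genes removed; with each library left out 24 to 28 were higher and 0 to 1 lower in TPM (1 without control replicate 1), and 8 to 11 higher and 5 to 6 lower rescaled. The share of Anxa6 differed by -7.00 percentage points among the 4 member annexins alone and by -3.17 points among all annexins. The cause of these changes was not tested. No paired analysis was possible because the titles share no replicate numbers between groups. With 3 libraries a group, no exact test could pass 0.05.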
